A study of Mus musculus with 6 samples.

Results

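The genes described here are 10 members of the fibroblast growth factor (FGF) family, the 6 ligand genes Fgf1, Fgf2, Fgf7, Fgf9, Fgf10 and Fgf18 and the 4 receptor genes Fgfr1, Fgfr2, Fgfr3 and Fgfr4. They were chosen by symbol among 19937 genes that single-gene probe sets name, and each of the 10 had a single such probe set. The samples were 6 tumours that grew in SCID mice, which lack mature T and B lymphocytes, after injection of MASE2 cells. The mice of 1 group (3 tumours) carried pellets of 17β-estradiol (E2) and those of the other group (3 tumours) carried placebo pellets, implanted together with the cells. MASE2 cells are ascites cells of the transgenic mouse model tgCAG-LS-TAg, in which Cre from an adenovirus injected under the ovarian bursa switches on the SV40 large and small T antigens in the ovarian surface epithelium, and all 6 tumours carry this background. The donor mouse of the cells had itself received E2, so the placebo tumours also descend from cells once exposed to it. The cells are a single ascites-derived isolate, tumours were collected at loss of wellness rather than at a set day, and the sources used here do not state the dose, the age of the mice or the site of growth.

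FGF ligands are secreted proteins that bind heparan sulfate on cell surfaces and in the matrix and activate receptor tyrosine kinases. Stromal cells typically make Fgf7 and Fgf10, and the epithelial splice form of Fgfr2 receives them. Active receptors signal through adaptor proteins to the RAS, MAP kinase and PI3 kinase pathways, which switch on inhibitors of the same pathway such as the Sprouty and dual-specificity phosphatase genes. In the ovary, FGFs take part in the exchange between stroma or theca, granulosa cells and surface epithelium.

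Values were log2 intensities, 1 per probe set and array, with array medians of 4.84 to 4.97. Levels of different genes were not set against each other, since probe sets differ in brightness. The array of placebo replicate 3 stood apart, with a Pearson r of 0.857 to 0.865 with the other arrays over all genes against 0.960 to 0.994 among the others. All 12 markers of the intestinal lining were highest in it, at a mean level of 10.5 against 4.43 and 4.55 in the other placebo tumours and 4.29 to 4.77 in the E2 tumours. Each member is therefore given with all 6 arrays and without that array, as are the counts of calls in the gene lists. Greb1, a direct oestrogen receptor target that serves as the check of the treatment, measured 4.88, 5.39 and 4.87 with placebo and 8.44, 8.42 and 8.53 with E2. Of the markers of ovarian surface epithelium and mesothelium, such as Krt7, Krt19 and Wt1, 0 of 11 were under the lower quartile of all genes (4.22 to 4.39 over the arrays) on every array. Their mean level was 7.26 to 7.84 with placebo and 6.49 to 6.68 with E2. In limma 1 of them fell on all arrays, beside 0.326% of all genes called lower. Without placebo replicate 3, 6 fell and 1 rose, beside 5.21% of all genes called lower and 6.4% called higher. Among the falls were Upk3b (-3.75), Gpm6a (-4.32) and Msln (-1.72 log2 units), and the rise was Aldh1a2 (1.47). Not called in that fit were Krt8 (-0.12), Krt18 (0.24), Krt19 (-0.68) and Lhx9 (-0.56). These genes were named after their values were seen, other than Krt19.

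Fgf7 rose in the E2 tumours and was the only member past the threshold on all 6 arrays, an adjusted p under 0.05 in limma over all 19937 genes. Fgf9 and Fgfr3 had E2 values above every placebo value and Fgfr2 had E2 values below every placebo value, but these 3 genes missed the threshold. Fgf18 was lower with E2 than in placebo replicates 1 and 2. The 1 call among 10 members stands beside 1.38% of all genes called in either direction and 1.06% called higher. The median change of the 10 members was -0.15 log2 units, and that of all genes -0.0087. With genes below the median level left out, the sign of both turned, to 0.54 over 6 members and 0.14 over 9969 genes. Groups did not overlap for 4 of the 10 members (3 higher and 1 lower with E2) and for 26.3% of all genes, or 14.9% higher and 11.4% lower. Leaving out placebo replicate 3 made these 6 of the 10 members and 41.6% of all genes. Without placebo replicate 3, Fgf7, Fgf9 and Fgfr3 rose and Fgf18 fell, beside 11.6% of all genes called, 6.4% higher and 5.21% lower. That share of called members rests on a comparison in which far more genes passed.

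**Figure D1:**
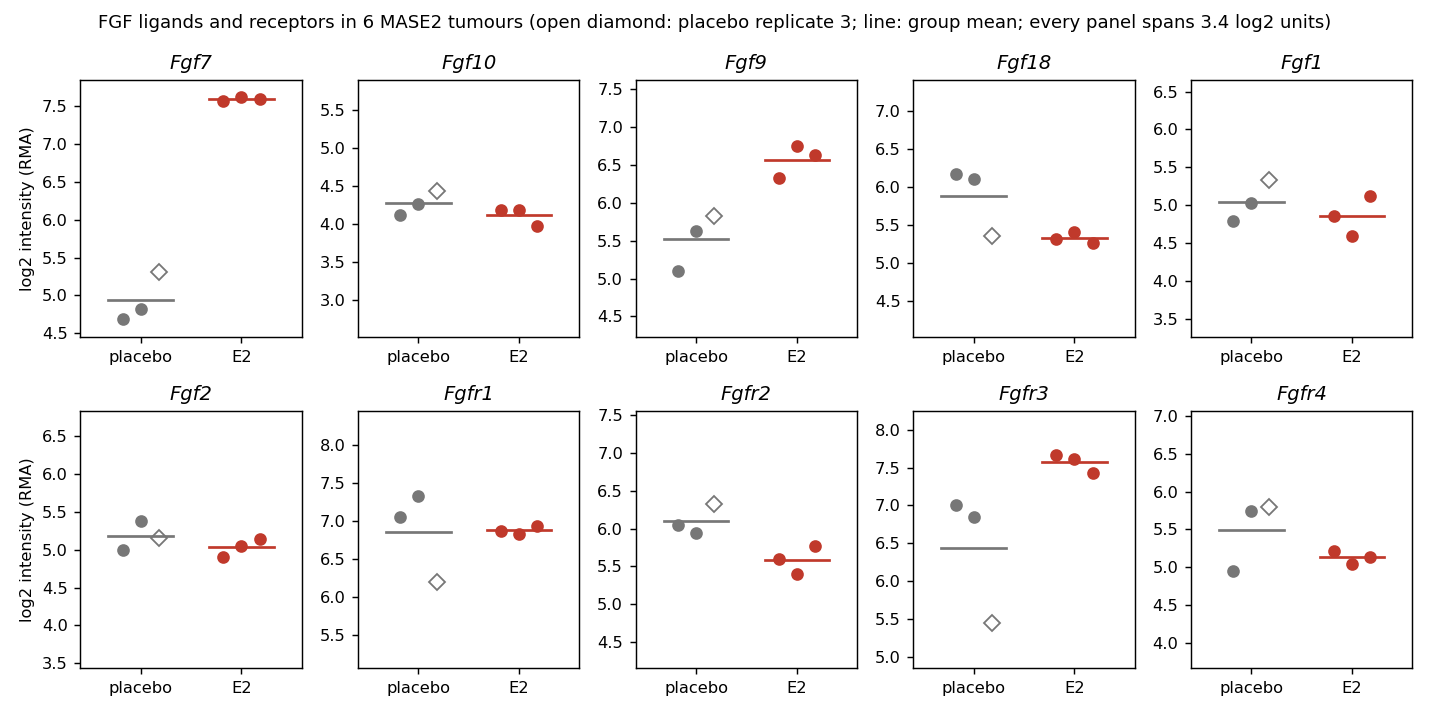
Log2 intensity (y axis) of each of the 10 genes in the 3 placebo and 3 E2 tumours, 1 point per tumour, with group means as lines and placebo replicate 3 as an open diamond. Each panel has its own axis of the same span, so only differences within a panel can be read. The E2 tumours lay at 7.57 to 7.62 for Fgf7 against 4.68 to 5.31 with placebo, while for Fgfr1 and Fgfr3 placebo replicate 3 was the lowest of all 6.

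Fgf7 encodes keratinocyte growth factor, a paracrine ligand that stromal cells make and that epithelial cells receive. Its log2 value was 4.68, 4.83 and 5.31 in placebo replicates 1, 2 and 3 and 7.57, 7.62 and 7.59 in E2 replicates 1, 2 and 3. All E2 tumours were high and nearly equal, all placebo tumours were low, and a gap of 2.26 log2 units separated the groups. The group values were 4.94 ± 0.33 with placebo and 7.59 ± 0.02 with E2 (SD, n = 3). The rise of Fgf7 was 2.65 log2 units, or 6.29-fold in intensity (95% confidence interval 2.24 to 3.07 log2 units, SE 0.17), with a limma adjusted p of 0.00345. An exact two-sided permutation test gave p = 0.10, the smallest that 3 against 3 allows. The gene kept its call whichever array was left out (log2 change 2.52 to 2.84, adjusted p up to 0.0488), and the change was larger, 2.84, without placebo replicate 3.

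Fgf10 belongs to the subfamily of Fgf7 and binds the same epithelial form of Fgfr2. It measured 4.12, 4.26 and 4.43 with placebo and 4.19, 4.18 and 3.98 with E2. The groups overlapped, and 2 of the 3 placebo values and all 3 E2 values were under the lower quartile of the array they came from, so Fgf10 was not shown to be above background. The difference was -0.16 log2 units (95% confidence interval -0.44 to 0.13, limma adjusted p = 0.542), and -0.074 without placebo replicate 3 (adjusted p = 0.746). No fold is given for it.

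The upstream regions of these 2 ligands are shown because, of this pair, only Fgf7 passed the test. RefSeq windows (assembly GRCm38.p6) matched 8 of the 10 members, and the other 2 are Fgf1 and Fgfr1. Each window shown holds the 250 bases before the annotated start, 5′ to 3′ on the + strand, at chr2:126034408-126034657 for Fgf7 and chr13:118714449-118714698 for Fgf10. Capitals mark GGTCA (either strand), which is 1 arm of the oestrogen response element, and the GC box GGGCGG (either strand).
Fgf7: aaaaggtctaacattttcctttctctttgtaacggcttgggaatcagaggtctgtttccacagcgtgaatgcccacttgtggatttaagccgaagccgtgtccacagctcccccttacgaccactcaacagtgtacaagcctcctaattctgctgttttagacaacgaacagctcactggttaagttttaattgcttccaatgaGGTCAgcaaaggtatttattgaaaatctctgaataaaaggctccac
Fgf10: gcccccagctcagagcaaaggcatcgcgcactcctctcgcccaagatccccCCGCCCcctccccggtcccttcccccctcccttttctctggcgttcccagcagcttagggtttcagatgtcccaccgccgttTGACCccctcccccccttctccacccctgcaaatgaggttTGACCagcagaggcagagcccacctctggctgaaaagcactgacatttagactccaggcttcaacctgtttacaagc

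The Fgf7 window held 1 GGTCA, its first base 46 bases before the start, and the Fgf10 window held 2, at 117 and 77 bases before the start. Of 32851 such windows in the table, 35.2% held at least 1 GGTCA on either strand, so a match is common. The whole palindrome, GGTCA and TGACC with any 3 bases between them, contains that arm on both strands. It was in 0 of the 9 windows of the 8 matched members and in 0.0639% of all windows. The NR5A1 motif CAAGGTCA, which also contains the arm, and the AP-1 motif TGANTCA had 0 matches in the members' windows, against 1.33% and 6.75% of all windows, and so did the TATA box TATAAA (12.4%), all on either strand. The GC box was in the Fgf10 window 1 time and in the Fgf7 window 0 times, and in 32.7% of all windows. The G and C content was 43.6% for Fgf7 and 61.2% for Fgf10, with a mean of 53.2% over all windows. These matches describe the letters of the windows only, and no binding was measured.

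Fgf9 is a ligand that acts on the mesenchymal forms of Fgfr2 and Fgfr3 and is needed in the embryo for testis formation. It measured 5.11, 5.63 and 5.83 with placebo and 6.33, 6.75 and 6.63 with E2. Every E2 tumour lay above every placebo tumour, and the placebo tumours spread more widely than the E2 tumours (SD 0.37 and 0.22, n = 3). The log2 difference was 1.05 (SE 0.21, 95% confidence interval 0.53 to 1.57), and it missed the threshold with a limma adjusted p of 0.0869. Without placebo replicate 3, which was the highest placebo tumour, Fgf9 rose by 1.20 on the log2 scale (limma adjusted p = 0.00511), and without any other array it did not pass.

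Fgf18 is a ligand known from bone and lung growth. It measured 6.17, 6.11 and 5.35 with placebo and 5.31, 5.40 and 5.27 with E2. Placebo replicate 3 lay among the E2 tumours and the other placebo tumours lay above all of them. The log2 difference was -0.55 (95% confidence interval -1.10 to 0.0061, limma adjusted p = 0.306). Leaving out placebo replicate 3, it passed as a fall (-0.81, limma adjusted p = 0.00168).

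Fgf1 and Fgf2, the acidic and basic FGFs, lack a classical secretion signal, and Fgf1 can bind every FGF receptor. Fgf1 measured 4.79, 5.03 and 5.33 with placebo and 4.86, 4.59 and 5.12 with E2, and Fgf2 measured 5.0, 5.38 and 5.15 with placebo and 4.90, 5.05 and 5.14 with E2. The groups of both genes overlapped. Their differences were -0.19 (95% confidence interval -0.66 to 0.27) and -0.15 log2 units (-0.45 to 0.16), with limma adjusted p of 0.637 and 0.587, and without placebo replicate 3 they were -0.053 and -0.16 (adjusted p = 0.892 and 0.536).

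Among the receptors, Fgfr3 carried the largest difference. Fgfr3 encodes a receptor for Fgf9 and Fgf18 among others. It measured 7.0, 6.85 and 5.44 with placebo and 7.67, 7.61 and 7.43 with E2. Placebo replicate 3 was 1.49 log2 units below the mean of the other placebo tumours, and all E2 tumours lay above all placebo tumours. The log2 difference of 1.14 had a wide 95% confidence interval, 0.13 to 2.15, and did not pass (limma adjusted p = 0.256). The difference was smaller without placebo replicate 3, at 0.64 log2 units (0.39 to 0.89), and Fgfr3 passed as a rise (limma adjusted p = 0.00875).

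Fgfr2 encodes the receptor whose epithelial form binds Fgf7 and Fgf10. It measured 6.04, 5.94 and 6.32 with placebo and 5.6, 5.40 and 5.77 with E2. All E2 tumours lay below all placebo tumours, with a gap of 0.17 log2 units. The difference was -0.51 (SE 0.14, 95% confidence interval -0.86 to -0.16), and it missed the threshold with all arrays (limma adjusted p = 0.171) and without placebo replicate 3 (-0.40, adjusted p = 0.0811). The probe set stands for the whole gene, so the epithelial and mesenchymal splice forms were not separated.

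Fgfr1 is the receptor typical of mesenchymal cells. It measured 7.06, 7.33 and 6.19 with placebo and 6.87, 6.83 and 6.94 with E2. The 3 E2 tumours were close together (SD 0.05), and the placebo tumours lay on both sides of them. The log2 difference was 0.02 (95% confidence interval -0.68 to 0.72, limma adjusted p = 0.979), and its direction turned without placebo replicate 3 (-0.31, adjusted p = 0.114).

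Fgfr4, a receptor best known from the liver, measured 4.95, 5.74 and 5.79 with placebo and 5.22, 5.05 and 5.14 with E2. Placebo replicate 1 was the lowest of all tumours and the other placebo tumours were the highest, so the groups overlapped. The difference was -0.36 log2 units (95% confidence interval -0.93 to 0.22, limma adjusted p = 0.499), and -0.21 without placebo replicate 3 (adjusted p = 0.609).

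**Figure D2:**
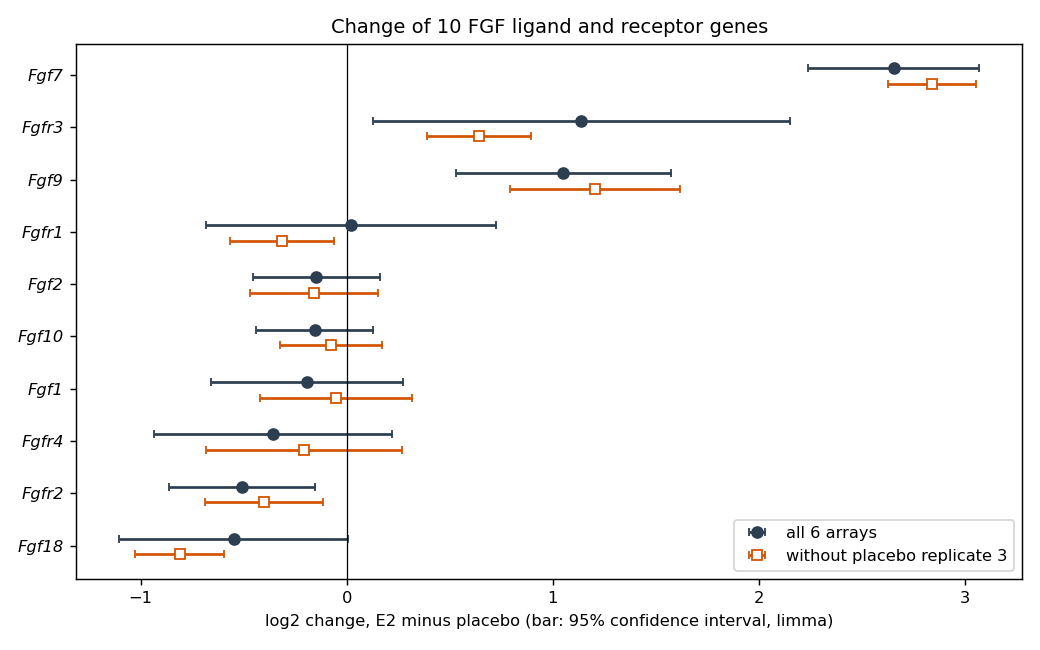
Log2 change, E2 minus placebo (x axis), of the 10 genes in limma, with bars for the 95% confidence interval. Filled circles use all 6 arrays and open squares leave out placebo replicate 3. Fgf7 lay at 2.65 and 2.84, and Fgf18 and Fgfr3 have intervals that narrow when that array is left out.

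The placebo SD exceeded the E2 SD in all 10 members (medians 0.35 and 0.12 log2 units, n = 3 each). For Fgf1 (0.27 and 0.26) and Fgfr2 (0.20 and 0.19) the SDs were nearly equal. Over all genes the placebo SD was the larger for 71.9%, with medians of 0.18 and 0.10. All these placebo SDs include placebo replicate 3, and none was computed without it. Placebo replicates 1 and 2 alone lay close for Fgf18 (6.17 and 6.11) and apart for Fgfr4 (4.95 and 5.74). Placebo replicate 3 held the highest placebo value of 6 members (Fgf1, Fgf7, Fgf9, Fgf10, Fgfr2 and Fgfr4) and the lowest of 3 (Fgf18, Fgfr1 and Fgfr3).

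Of the other 16 FGF genes, listed here as other ligands, 1 rose with E2, Fgf16, and 15 did not pass, beside 1.06% of all genes called higher. The list also counts Fgf11, Fgf12, Fgf13 and Fgf14, which are not secreted ligands as defined above. Fgf16 belongs with Fgf9 and Fgf20 to the Fgf9 subfamily and is known from the heart. It measured 4.66, 4.58 and 4.49 with placebo and 5.62, 5.29 and 5.78 with E2, with no overlap. Fgf16 rose by 0.98 on the log2 scale (SE 0.14, limma adjusted p = 0.0391). Leaving out placebo replicate 3 kept the call (0.94, adjusted p = 0.00597), while leaving out any other array ended it (adjusted p up to 0.178). Fgf20, of the same subfamily, differed by -0.12 (adjusted p = 0.558), or -0.10 with placebo replicate 3 left out (adjusted p = 0.622). In that fit 1 of the 16 listed genes rose and 1 fell, beside 6.4% of all genes called higher and 5.21% called lower. The fall was Fgf5 (-0.43, adjusted p = 0.0265), named after its values were seen. The median change of the 16 listed genes was -0.10 log2 units, and 2 of them, Fgf6 and Fgf14, were under the lower quartile on every array.

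In the list of 9 co-receptors and binding proteins 0 genes passed, and 3 had an unadjusted limma p under 0.05. No share of all genes was counted at that unadjusted cutoff. This count and those of the lists below are therefore not read as results about the lists. The list held 1 rise and 2 falls without placebo replicate 3, beside 6.4% of all genes called higher and 5.21% called lower. Fgfbp1 encodes a carrier that frees FGFs from the matrix. It measured 4.87, 4.65 and 5.13 with placebo and 4.13, 4.11 and 4.11 with E2, where all 3 were under the lower quartile. The E2 values were thus not shown above background, and the measured difference of -0.77 log2 units (limma adjusted p = 0.0600) has no exact size. With such values raised to the quartile it was -0.63 (adjusted p = 0.0913). On the measured values Fgfbp1 passed as a fall without placebo replicate 3 (adjusted p = 0.00612). The other fall was Flrt3 (-0.58, adjusted p = 0.0176), named after its values were seen, and its 3 E2 values were also under the lower quartile. Ncam1, an adhesion molecule that can bind Fgfr1, was 1.16 log2 units higher (adjusted p = 0.121) and rose by 0.84 without placebo replicate 3 (adjusted p = 0.00164). The genes of the Klotho co-receptors, Kl and Klb, lay below the lower quartile on all arrays.

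Among 22 carriers and enzymes of heparan sulfate, which FGFs need to hold their receptors, 0 passed on all arrays (3 with an unadjusted limma p under 0.05) and the median change was -0.094 log2 units. The smallest p belonged to Hs6st1, a sulfotransferase (-0.41, adjusted p = 0.120), and the glypican gene Gpc4 (0.42, adjusted p = 0.133). The first passed without placebo replicate 3 (-0.44, adjusted p = 0.0319) and the other did not (0.42, adjusted p = 0.0563). The list held 6 falls and 0 rises without placebo replicate 3, beside 5.21% of all genes called lower and 6.4% called higher. The glypican gene Gpc3, chosen after its values were seen, measured 9.35, 8.70 and 6.54 with placebo and 6.86, 6.63 and 6.53 with E2. Placebo replicate 3 again lay among the E2 tumours, and the log2 difference went from -1.52 (adjusted p = 0.348) to -2.35 without it (adjusted p = 0.000362). The syndecan genes Sdc2 and Sdc3, also chosen after their values were seen, passed as falls in that fit (-1.09 and -1.32, adjusted p = 0.00538 and 0.00173).

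Of 17 adaptors and transducers, 2 rose, 0 fell and 15 did not pass, beside 1.06% of all genes called higher. The median change was 0.026 log2 units. Map2k1 encodes MEK1, the kinase that activates ERK. It measured 7.66, 7.69 and 8.25 with placebo and 9.13, 9.27 and 9.22 with E2, a rise of 1.34 on the log2 scale (SE 0.17, limma adjusted p = 0.0301). Sos2, an exchange factor that loads RAS with GTP, rose by 1.14 (SE 0.15, adjusted p = 0.0301), from 6.43 ± 0.24 to 7.56 ± 0.14 (SD, n = 3). With placebo replicate 3 left out both kept the call (adjusted p = 0.000123 and 0.00129), and without any other array both lost it (adjusted p up to 0.177 and 0.159). Without placebo replicate 3, 2 of the 17 rose and 1 fell, beside 6.4% of all genes called higher and 5.21% called lower. The fall was the adaptor gene Gab1 (-1.04, adjusted p = 0.00135). It differed by -0.55 on all arrays (adjusted p = 0.544) and was named after its values were seen. Map2k2, which encodes the second MEK, differed by -0.15 (adjusted p = 0.662), turning to 0.019 without placebo replicate 3, and Sos1 by -0.025 (adjusted p = 0.927). These kinases and exchange factors serve many receptors besides those of FGFs.

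The pathway lists differ in size, and the 17 adaptors and transducers had 2 calls. The list of feedback inhibitors and target genes held the largest number of calls of the 6 pathway lists. Of its 21 genes, 3 rose, 0 fell and 18 did not pass on all arrays, beside 1.06% of all genes called higher. The median change was 0.34 log2 units against -0.0087 for all genes, and 10 had E2 values above every placebo value, beside 14.9% of all genes. Dusp5 and Etv1 had E2 values below every placebo value, beside 11.4% of all genes. Without placebo replicate 3, 11 of the 21 rose and 1 fell, with a median of 0.54, beside 6.4% of all genes called higher and 5.21% called lower. No test of the list was made. These genes are also known to respond to growth factors other than FGFs, and whether E2 acted on them through FGFs or otherwise was not tested.

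Spred2, which restrains RAS signalling to RAF, measured 6.55, 6.66 and 6.75 with placebo and 7.32, 7.31 and 7.45 with E2 and rose by 0.71 on the log2 scale (limma adjusted p = 0.0312). Etv5, an ETS factor induced by FGF signals, measured 5.44, 5.69 and 5.25 with placebo and 6.22, 6.30 and 6.29 with E2 and rose by 0.81 (adjusted p = 0.0483). Egr1, an immediate early factor, measured 5.41, 5.51 and 5.58 with placebo and 6.08, 6.39 and 6.42 with E2 and rose by 0.80 (adjusted p = 0.0440). In each the groups were separate. Without placebo replicate 3 the 3 genes kept the call (adjusted p = 0.0027, 0.00513 and 0.00512), and Etv5 also kept it without placebo replicate 2 (0.0367). Every other array left out ended each of these calls (adjusted p up to 0.164, 0.234 and 0.227), and the mean of the probe sets ended those of Spred2 (0.57, adjusted p = 0.0765) and Etv5 (0.71, adjusted p = 0.0884). Spred2 and Etv5 each had another, dimmer probe set that kept the direction but did not pass on its own.

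Other genes of this list, chosen after their values were seen, had separate groups without a call. Spry2, a Sprouty inhibitor, measured 5.82, 6.53 and 6.33 with placebo and 7.27, 7.36 and 7.02 with E2, a difference of 0.99 log2 units (limma adjusted p = 0.0885). Phlda1 differed by 1.48 (adjusted p = 0.0951), Dusp4 by 0.96 (adjusted p = 0.159) and Etv4 by 0.77 (adjusted p = 0.121). All 4 rose without placebo replicate 3 (adjusted p = 0.0158, 0.00129, 0.0199 and 0.00235).

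Dusp6, an ERK phosphatase that FGF signals induce, differed widely between the placebo tumours. It measured 6.73, 6.53 and 8.08 with placebo and 7.71, 8.07 and 7.95 with E2. Placebo replicate 3 was the highest of all tumours, and the difference went from 0.79 log2 units (adjusted p = 0.400) to 1.28 without it (adjusted p = 0.000996). Not all inhibitors followed: Spry1 differed by -0.30 (adjusted p = 0.288) and by -0.36 without that array (adjusted p = 0.0952), Spry4 by 0.030 (adjusted p = 0.917) and Il17rd by -0.29 (adjusted p = 0.565), and Il17rd passed as a fall without placebo replicate 3 (-0.55, adjusted p = 0.0160).

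**Figure D3:**
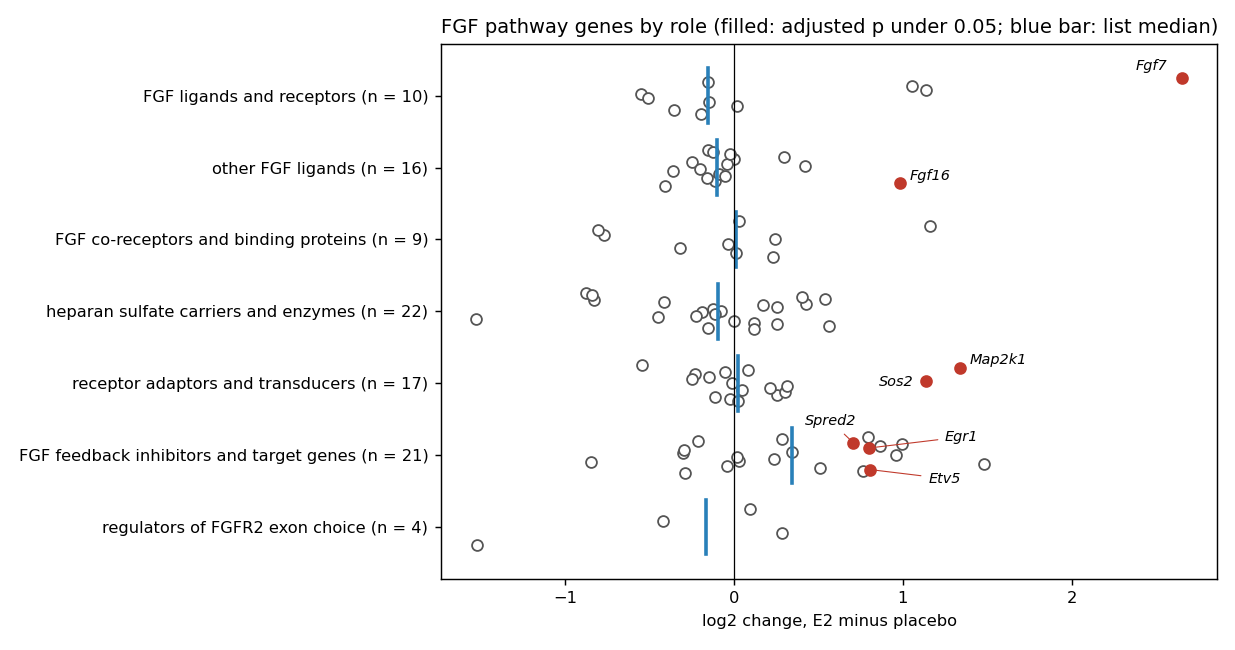
Log2 change, E2 minus placebo on all 6 arrays (x axis), of the FGF ligands and receptors and 6 further lists of pathway genes (y axis), 1 point per gene, filled where the limma adjusted p was under 0.05, with the list median as a blue bar. The median of the feedback and target genes lay at 0.34, and that of the 10 ligands and receptors at -0.15.

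**Figure D4:**
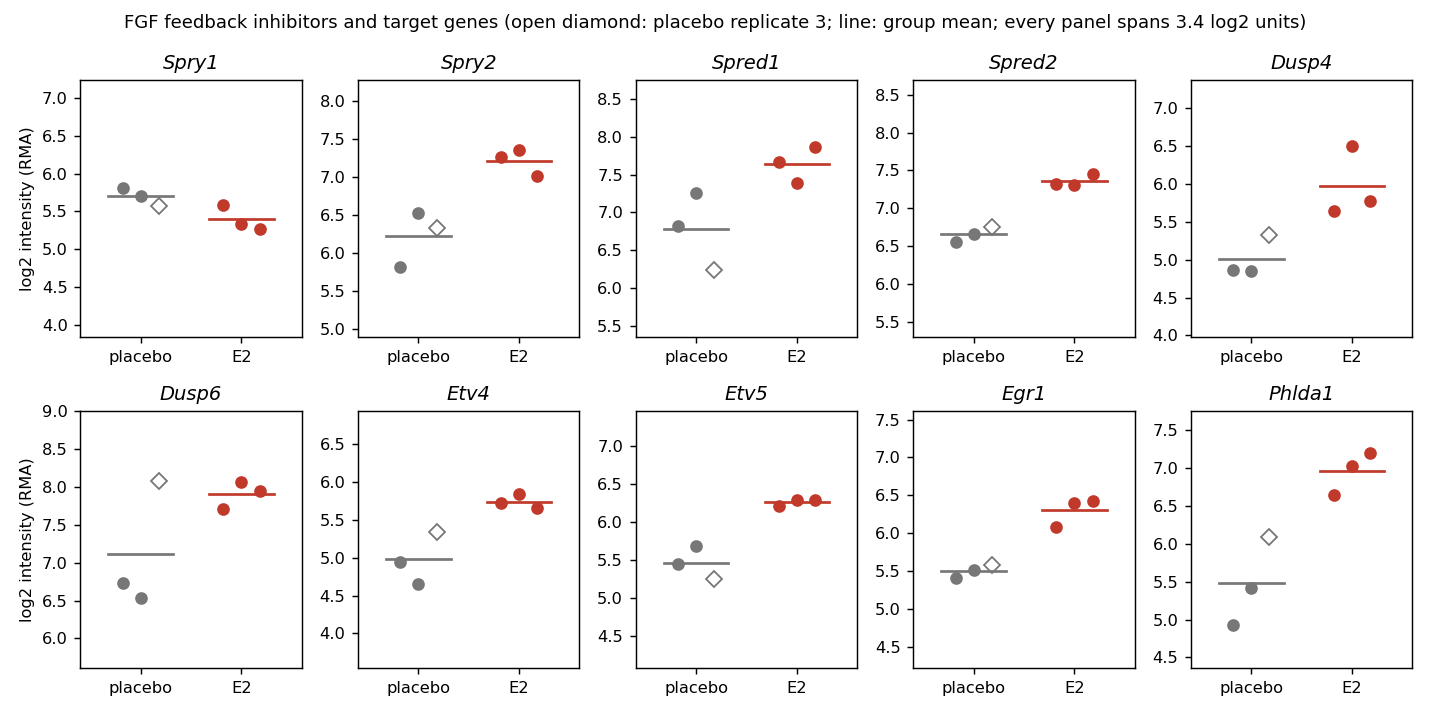
Log2 intensity (y axis) of 10 feedback inhibitors and target genes in the 3 placebo and 3 E2 tumours, 1 point per tumour, with group means as lines and placebo replicate 3 as an open diamond. Each panel has its own axis of the same span. For Dusp6 the open diamond lay at 8.08, above all E2 tumours, and for Spry2, Spred2, Etv5 and Egr1 it lay below all of them.

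Of the 4 regulators of Fgfr2 exon choice, 0 passed, also at an unadjusted limma p under 0.05. Esrp1, the epithelial splicing factor that favours the form that binds Fgf7, measured 6.09, 4.24 and 7.51 with placebo and 4.49, 4.42 and 4.35 with E2. Placebo replicate 2 lay below all E2 tumours and the other placebo tumours above them, and the difference was -1.52 log2 units (adjusted p = 0.390), or -0.74 without placebo replicate 3 (adjusted p = 0.356). Esrp2, the other epithelial factor, differed by -0.42 (adjusted p = 0.579), or -0.12 without that array (adjusted p = 0.844), and 0 of the 4 passed in that fit either.

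Marker lists of other cell types are given beside Fgf7, since in bulk tumours a change in the number of cells of a type and a change in RNA per cell cannot be told apart. The 11 fibroblast and stroma markers, of the cells that usually make Fgf7, had a mean level of 7.26 to 7.98 with placebo and 7.22 to 7.60 with E2, and none lay below the lower quartile on all arrays. Of them 1 rose, Twist2 (1.53 log2 units, limma adjusted p = 0.0438), and 0 fell, while Pdgfra was 0.86 higher (adjusted p = 0.189) and Col3a1 differed by -1.40 (adjusted p = 0.0704). Without placebo replicate 3, 2 rose, Pdgfra (adjusted p = 0.0127) and Twist2, and 5 fell, among them Col3a1 (adjusted p = 0.00689). Beside these and the counts that follow, 6.4% of all genes were called higher and 5.21% lower in that fit. On all arrays the shares were 1.06% and 0.326%. The 7 granulosa and luteal markers had a mean level of 4.70 to 4.84 with placebo and 6.25 to 6.49 with E2. Of them 3 rose, Inha (3.81), Cyp11a1 (4.26) and Nr5a1 (2.45 log2 units), and without placebo replicate 3 Star rose as well (0.83). Foxl2 (-0.014), Amh (-0.18) and Fshr (-0.011) had slightly lower means with E2 and were not called. Fshr lay below the lower quartile on all arrays. The 9 epithelial markers had mean levels of 5.92, 5.16 and 7.43 in placebo replicates 1, 2 and 3 and 4.96 to 5.02 with E2. Their median change was -1.04 log2 units, and -0.065 without placebo replicate 3. They had 0 calls in limma and 1 at an unadjusted p under 0.05, and 1 fall without placebo replicate 3. The 12 intestinal markers spanned 4.43 to 10.5 with placebo, through placebo replicate 3, and the Fgf7 change was 2.84 log2 units without that array. The 10 macrophage markers (6.85 to 7.70 with placebo and 6.31 to 6.74 with E2) had 2 falls, and 8 without placebo replicate 3. The 10 endothelial markers (5.79 to 6.0 and 5.53 to 5.89) had 1 rise, while 9 had lower means with E2, and without that array 1 rose and 3 fell. The 6 adipocyte markers (4.95 to 5.30 and 4.38 to 4.50) had 1 fall, and 5 without placebo replicate 3. The fall on all arrays was Adipoq, whose 3 E2 values were under the lower quartile and so not shown above background. The 6 smooth muscle markers had mean levels of 6.02, 6.60 and 8.29 in placebo replicates 1, 2 and 3 and 6.19 to 6.68 with E2. They had 0 calls, also at an unadjusted p, and 1 rise without placebo replicate 3. The part of these cells in the Fgf7 result was not tested.

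**Figure D5:**
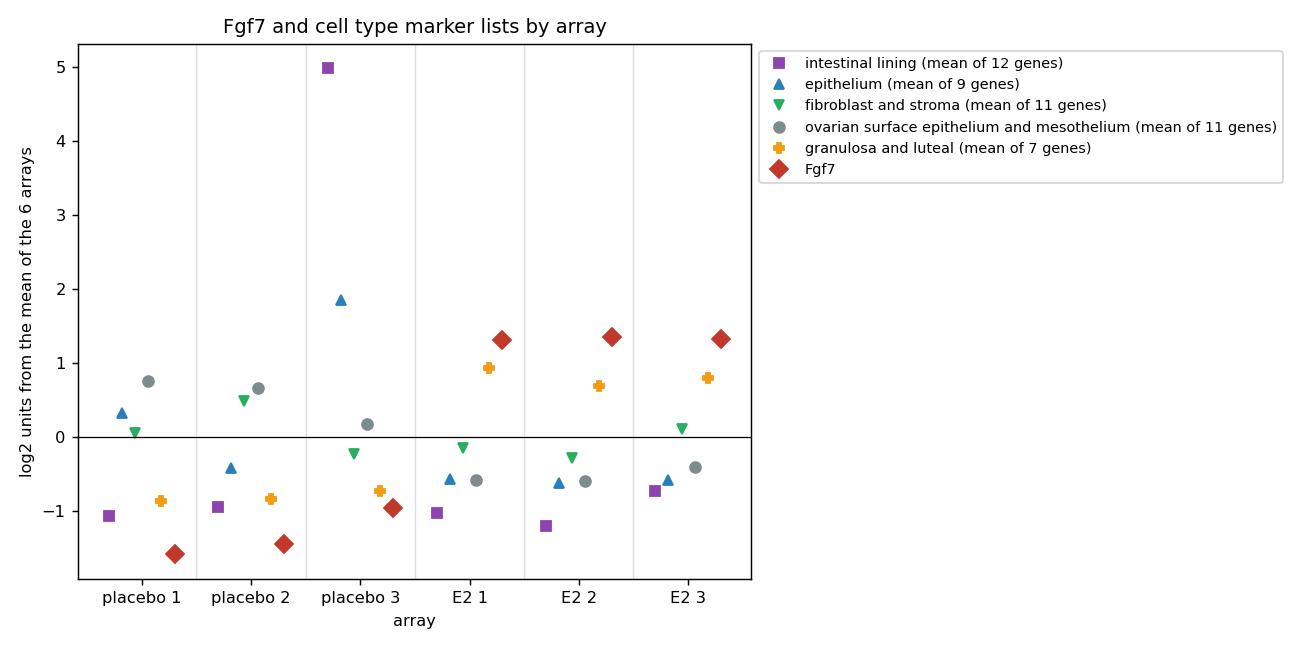
Fgf7 and the mean of 5 marker lists on each array (x axis), in log2 units from their own mean over the 6 arrays (y axis). Placebo replicate 3 stands out by its intestinal markers, and the fibroblast markers overlap between the groups. The granulosa and luteal mean is higher on all E2 arrays (6.25 to 6.49 against 4.70 to 4.84), through 4 of its 7 genes.

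The genes whose values followed those of Fgf7 most closely were found by Pearson r over the 6 arrays among 3948 other genes with a range of at least 1 log2 unit. The 5 highest were Chst11 (r = 0.9996), a chondroitin sulfotransferase, Myl7 (0.999), an atrial myosin light chain, Nr0b2 (0.998), a nuclear receptor that represses others, Lipg (0.996), the endothelial lipase, and Frzb (0.995), a secreted WNT antagonist. Chst11 measured 5.25, 5.48 and 5.90 with placebo and 7.91, 7.93 and 7.91 with E2. As in Fgf7, placebo replicate 3 was the highest placebo tumour and the E2 tumours were nearly equal. The log2 changes of the 5 genes were 2.37, 3.38, 1.28, 3.01 and 2.65. They are a description, since the 6 arrays fall into 2 groups and all 5 genes had separate groups.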

How the data were processed

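RNA of 6 tumours was hybridised to whole-transcript arrays. The authors deposited log2 intensities. The submitters' processing notes name RMA, which compresses changes near background. Of 34760 probe sets, 21640 had 1 gene symbol in the platform annotation (19937 genes). Of these, 21553 matched RefSeq by gene ID. The brightest probe set on average stood for a gene. Groups came from the titles. E2 and placebo were compared with limma 3.58.1 (R 4.3.3), two-sided, without covariates, and p was adjusted by Benjamini-Hochberg over all genes (threshold 0.05). The replicates are described as biological. Log2 changes are E2 minus placebo. A value below an array's lower quartile of genes was taken as not shown above background. The number of arrays limits precision.

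Members and lists were chosen with earlier results of these data known. All 10 members were named, and from each pathway list the called genes (up to 6), or the 2 of smallest p. Spry2, Phlda1, Dusp4, Dusp6, Etv4, Gpc3, Sdc2, Sdc3 and others outside this rule were chosen after their values were seen. Of the 23 adaptor genes, 17 were measured, and Ndst1 and Anos1 had no single-gene probe set. Alternatives covered left-out arrays, the replicate number as a block, filters, scaling, variance models, weights and thresholds. On simulated data for these 19937 genes, limma recovered 59% of genes changed by 1 log2 unit and 87% of those changed by 2, with 12 false calls. The simulated noise was independent between genes and equally wide in both groups. It held no array that stood apart as placebo replicate 3 did, so these rates need not hold for the real arrays.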

Additional observations from a re-analysis of the deposited data

How the results depend on the processing

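Fgf7 kept its direction and its call under every alternative run but 1, the fit with the replicate number as a block (2.65 log2, limma adjusted p = 0.0550), and the cause of that loss was not tested. The labels state no pairing of tumours by replicate number. Deviations of same-numbered tumours from their group means correlated at -0.029, -0.182 and -0.130, and no tumour correlated best with its own number. With 3 tumours per group, of which placebo replicate 3 stood apart, these correlations cannot show whether tumours were paired. Under the block 10 genes passed over all genes and 0 among the 10 members, 0 of the other ligands, 0 adaptors and 0 feedback genes. Of 145 values of the 10 members under alternatives, 135 kept direction and side of the threshold, 5 gained a call, 1 lost it and 4 changed sign. The sign changes were all in Fgfr1, with array weights (-0.26), repeated quantile normalization (-0.11), without E2 replicate 3 (-0.0086) and without placebo replicate 3 (-0.31), within a range of -0.31 to 0.25 over the left-out arrays. Sdc2 ranged from -1.09 to 0.017 over the left-out arrays, turning without placebo replicate 2, and Fos, at 0.018 on all arrays, to -0.019 with quantile normalization, -0.033 and -0.021 without E2 replicates 1 and 2, and -0.22 and -0.27 without placebo replicates 1 and 2 (range -0.27 to 0.54).

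Over all genes 276 passed. The count was 31 to 2315 without each array in turn, 1786 with array weights, 422 with arrays centred on their median, 736 at an adjusted p under 0.10 and 540 without placebo replicate 3 at a change of at least 1 log2 unit, which was added after the data were seen. Among the 10 members it was 1 to 4 without each array, 3 with array weights, 2 at an adjusted p under 0.10 and 2 in the added alternative. Without each array it was 0 to 2 among the other ligands, 0 to 3 for co-receptors, 0 to 6 for heparan sulfate genes, 0 to 3 for adaptors and 0 to 12 for feedback genes. Array weights gave 2 other ligands, 3 co-receptors, 5 heparan sulfate genes and 10 feedback genes. An adjusted p under 0.10 gave 2 other ligands, 1 co-receptor and 5 feedback genes. With dim genes below the median left out, 0 other ligands passed, beside 258 of all 9969 genes that remained. That filter removed Fgf16 itself, so the count does not test its call. A trended and robust variance gave 1 co-receptor and 0 feedback genes, beside 278 of all 19937 genes. The mean of probe sets gave 1 feedback gene, beside 273 of all 19937 genes. The median change of the members was 0.54 log2 units over the 6 of them that remained with genes below the median left out, against 0.14 for all 9969 genes that remained. The number of arrays and the low signal of genes such as Fgf10 limit what could be detected.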
